A study of Mus musculus with 4 samples.

Results

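The immunoglobulin heavy chain variable genes were described in single-cell RNA libraries of mouse bone marrow, as every gene of the count matrices whose symbol starts with Ighv. There were 185 such genes of 32285 genes in the matrices. Each of the 4 libraries held Kit+ CD45.2+ bone marrow cells taken 10 weeks after transplantation, where Kit is a receptor of stem and progenitor cells and CD45.2 marks cells of donor origin. The groups were a control, a deletion of Mll3, a deletion of Mll4, and a deletion of both Mll3 and Mll4. Mll3 and Mll4 are the histone methyltransferases encoded by Kmt2c and Kmt2d, which place H3K4 monomethylation at enhancers. The labels do not give the deletion alleles, the Cre driver, the strain or the number of animals behind a library. Each group was 1 library, so no difference between groups has a replicate check, no p-value is given, and all intervals (exact, 95%) cover counting error only.

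A heavy chain is assembled in B-cell progenitors by joining a V gene to a D and a J segment. The D to J step comes first, and the V genes are transcribed in their unjoined, germline form before and during the second step. The Ighv genes lie in a long array, with the V genes nearest the D segments called proximal and those far from them distal. Each V gene has its own promoter, and V genes are grouped by sequence likeness into subfamilies, given by the number before the dash in the symbol. The libraries were made with a kit that reads the 3′ end of transcripts, so a count on an Ighv gene does not show whether the gene was rearranged.

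The 185 genes spanned 2.44 Mb of chromosome 12 (GRCm38, chr12:113572927-116010093), and 183 were on the minus strand. In the GENCODE annotation 113 were V genes, 70 were V pseudogenes and 2 were of the class IG_LV_gene. They fell into 16 subfamilies, of which Ighv1 had 93 genes, Ighv5 22, Ighv8 16, Ighv2 11, Ighv3 8 and Ighv6 7, while the other 10 had 1 to 4 genes each. The symbols Ighv5-8 and Ighv1-13 were each shared by a pair of genes, and the plus-strand member of each pair had no count.

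The 7 genes with the highest counts were all of the Ighv1 subfamily, and their 3′ ends are printed because these are the stretches closest to where the V gene is joined. Each is the last 90 bases of the GENCODE transcript, 5′ to 3′ on the minus strand of chromosome 12 (GRCm38), with capitals from the codon of the conserved cysteine to the end. Ighv14-2 and Ighv5-2 follow as proximal genes from other subfamilies.
Ighv1-23: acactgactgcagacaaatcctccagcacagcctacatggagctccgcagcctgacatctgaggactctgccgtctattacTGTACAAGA
Ighv1-76: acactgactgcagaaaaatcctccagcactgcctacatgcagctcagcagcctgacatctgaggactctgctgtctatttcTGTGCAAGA
Ighv1-66: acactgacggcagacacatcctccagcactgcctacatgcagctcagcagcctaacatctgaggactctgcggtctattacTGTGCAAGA
Ighv1-75: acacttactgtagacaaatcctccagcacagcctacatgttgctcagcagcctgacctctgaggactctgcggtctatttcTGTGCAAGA
Ighv1-82: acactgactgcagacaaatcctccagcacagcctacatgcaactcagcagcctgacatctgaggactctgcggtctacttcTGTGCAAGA
Ighv1-7: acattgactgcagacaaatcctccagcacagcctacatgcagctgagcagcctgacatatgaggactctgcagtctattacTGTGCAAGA
Ighv1-63: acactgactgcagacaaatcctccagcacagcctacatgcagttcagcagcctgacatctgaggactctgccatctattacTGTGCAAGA
Ighv14-2: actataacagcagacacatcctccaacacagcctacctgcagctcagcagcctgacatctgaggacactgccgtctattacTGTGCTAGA
Ighv5-2: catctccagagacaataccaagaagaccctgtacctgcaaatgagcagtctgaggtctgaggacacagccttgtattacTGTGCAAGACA
The genes lie at chr12:114764450-114764883 (Ighv1-23), chr12:115847881-115848331 (Ighv1-76), chr12:115593110-115593591 (Ighv1-66), chr12:115833950-115834418 (Ighv1-75) and chr12:115952538-115953005 (Ighv1-82). Ighv1-7 lies at chr12:114538495-114538965, Ighv1-63 at chr12:115495625-115496058, Ighv14-2 at chr12:113994469-113994898 and Ighv5-2 at chr12:113578504-113578990.

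After filtering, 7146 cells of the control library, 5860 of the Mll3-labelled, 5350 of the Mll4-labelled and 6917 of the Mll3/4-labelled library were kept, with median depths of 15754, 16963.5, 5142 and 9965 UMIs (unique molecular identifiers, the counted molecules). Pairs of libraries shared 9 to 24 barcodes. Kmt2c was at 47.9 CPM (counts per 1000000 UMIs of all genes) in the control library, 27.2 in the Mll3-labelled, 59.2 in the Mll4-labelled and 34.8 in the Mll3/4-labelled library. Kmt2d was at 25.8, 21.6, 25.0 and 24.7 CPM in the same order, so its 3′ counts did not fall with its label, and they do not show whether an exon elsewhere was deleted. The libraries are therefore called by their labels, as the Mll3-labelled library and so on. The Mll4-labelled library also stood apart in Xist, at 0.519 CPM against 955 to 1839 CPM in the other 3.

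B-cell progenitor-like cells were the clusters whose mean level of 14 fixed B-cell progenitor markers stood highest among the marker lists, found with the immunoglobulin genes left out of the clustering. They were 467 cells (6.54% of kept cells) in the control, 370 (6.31%) in the Mll3-labelled, 143 (2.67%) in the Mll4-labelled and 6831 (98.8%) in the Mll3/4-labelled library. All 14 B-cell progenitor markers were detected in at least 10% of these cells in the first 3 libraries, and 13 were in the Mll3/4-labelled library. Different clusters held them: clusters 18 and 21 held nearly all in the first 3 libraries, and clusters 0, 2, 5, 20 and 22 held them in the Mll3/4-labelled library. Clusters 18 and 21 had markers such as Rag1, Vpreb1, Ebf1, Blnk, Pax5 and Cd79a among their 10 leading genes. Clusters 0, 2, 5 and 20 had none of the 14 among theirs, which included Gria2, Prlr, Rnase12, Enpep and Epha5, and cluster 22 had Cd79a alone. Median depths of the B-cell progenitor-like cells were 4410, 6481, 2276 and 9936 UMIs in the order of the libraries above.

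Ighv RNA was far more abundant in the B-cell progenitor-like cells of the Mll3/4-labelled library than in those of the other 3. All Ighv genes together had 26 UMIs in the control cells, 49 in the Mll3-labelled, 6 in the Mll4-labelled and 31055 in the Mll3/4-labelled cells. As levels these were 8.21 CPM (5.36 to 12.03), 17.0 CPM (12.6 to 22.5), 16.8 CPM (6.18 to 36.7) and 409 CPM (405 to 414). The Mll3/4-labelled level was 49.8-fold the control level (34.0 to 76.3), and its interval did not overlap that of any other library. The Mll3-labelled level was 2.07-fold the control level (1.26 to 3.48), and the Mll4-labelled ratio of 2.05 had an interval from 0.691 to 5.10 that includes no difference. These 2 ratios were higher when doublets were left in, but still inside the intervals just given. That setting also changed the class. There a cluster led by Jchain and Ms4a1 was named mature B and joined the class. It held 28 control, 149 Mll3-labelled and 12 Mll4-labelled cells. The log2 ratio to control was then 1.66 (1.03 to 2.34) in place of 1.05 for the Mll3-labelled library. For the Mll4-labelled library it was 2.34 (1.32 to 3.30) in place of 1.04, an interval that excludes no difference. The parts of doublets and of this cluster in these shifts were not told apart.

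In every library the B-cell progenitor-like cells stood above the sum of the other cells, which serves as the background. The other kept cells had Ighv levels of 0.239, 0.309, 0.771 and 14.3 CPM, from 36, 41, 25 and 25 UMIs. Within a library the B-cell progenitor-like level was 34.3-fold (19.9 to 58.4), 55.1-fold (35.6 to 85.5), 21.8-fold (7.33 to 54.5) and 28.6-fold (19.3 to 44.1) that of the other cells. In the Mll3/4-labelled library only 86 cells were outside the B-cell progenitor-like class, and 18 of their 25 UMIs were in 25 neutrophil-like cells. In the control and Mll3-labelled libraries the stem and multipotent progenitor-like cells held 17 and 19 of the UMIs outside the class, at 1.10 and 1.65 CPM. In the Mll4-labelled library the basophil and mast-like cells held 8 of the 25 UMIs outside the class, at 11.5 CPM (4.97 to 22.7), an interval that overlaps that of the B-cell progenitor-like cells. Over all kept cells the level was 0.404, 0.824, 0.976 and 400 CPM, where the share of B-cell progenitor-like cells also enters.

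**Figure D1:**
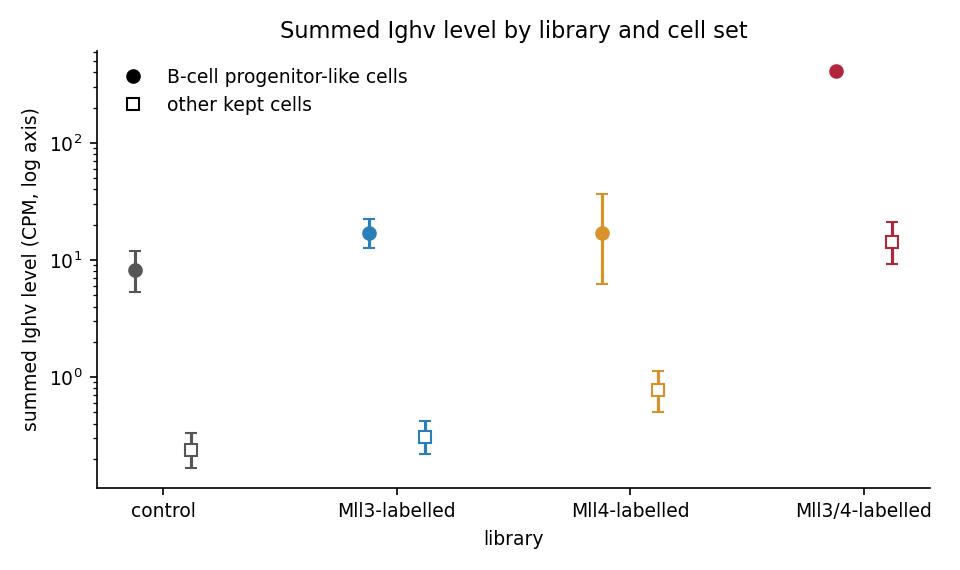
Summed Ighv level in CPM (log axis) for each library, in B-cell progenitor-like cells (filled circles) and other kept cells (open squares), with exact 95% Poisson intervals. The Mll3/4-labelled B-cell progenitor-like cells sit at 409 CPM and the other 3 libraries between 8.21 and 17.0 CPM.

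At least 1 Ighv UMI was found in 5.57% of control, 11.6% of Mll3-labelled, 4.20% of Mll4-labelled and 93.3% of Mll3/4-labelled B-cell progenitor-like cells. The shares in the other cells were 0.511%, 0.674%, 0.480% and 9.30%, at median depths of 16304.5, 18043, 5202 and 18663.5 UMIs. With each cell thinned to 2000 UMIs and shallower cells left out (30, 20, 69 and 83 cells), the shares were 2.97%, 4.57%, 1.35% and 55.3%. The thinned shares in other cells were 0.0455%, 0.0766%, 0.278% and 2.35%.

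Most Mll3/4-labelled B-cell progenitor-like cells held UMIs of several Ighv genes. The median was 3 distinct genes in a cell and the maximum 15, and 79.9% of cells had at least 2 genes and 61.3% at least 3. In the control and Mll4-labelled libraries no cell had more than 1 Ighv gene, and in the Mll3-labelled library 4 cells had 2. The mean was 0.0557 distinct genes a cell in the control, 0.127 in the Mll3-labelled, 0.0420 in the Mll4-labelled and 3.39 in the Mll3/4-labelled library. With each cell thinned to 2000 UMIs it was 0.0297, 0.0486, 0.0135 and 0.837. In the 4653 Mll3/4-labelled cells with at least 3 Ighv UMIs, the top gene held a median of 33.3% of the cell's Ighv UMIs.

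**Figure D2:**
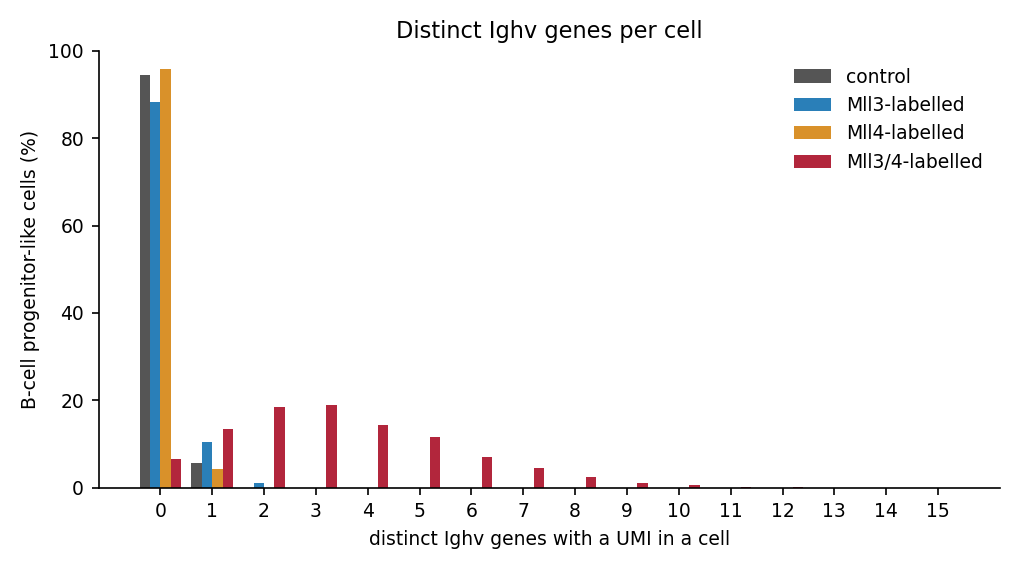
Share of B-cell progenitor-like cells (%) by the number of distinct Ighv genes with a UMI in the cell, with bars for the 4 libraries at their own depths. The bars of the first 3 libraries stand almost wholly at 0 and 1, and those of the Mll3/4-labelled library peak at 3 with 18.9% of cells.

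A cell was said to have a dominant Ighv gene where a gene with at least 3 UMIs held more than 50% of the cell's Ighv UMIs. In the Mll3/4-labelled library 422 of 6831 cells (6.18%, 5.62 to 6.77) had one. None was found in the other libraries, which at 3 counts of the total allows shares of up to 0.642% in the control, 0.811% in the Mll3-labelled and 2.10% in the Mll4-labelled cells, with exact upper bounds of 0.787%, 0.992% and 2.55%. Ighv1-23 was the dominant gene in 286 of the 422 cells (67.8%), Ighv1-76 in 64 and Ighv1-66 in 31. After thinning to 2000 UMIs the share was 0.445%, so the value depends on depth.

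In 8 cells a single Ighv gene reached 10 or more UMIs, all in the Mll3/4-labelled library. The highest was Ighv1-76 with 22 of the 24 Ighv UMIs of its cell. Ighv2-9-1 had 15 of 16 in another cell, although it had only 37 UMIs over the whole class. Ighv2-5 had 11 UMIs in each of 2 cells, where it made up 11 of 12 and 11 of 26 Ighv UMIs. Ighv1-23 reached 10 to 12 UMIs in 4 cells, each with 5 to 12 distinct Ighv genes. Ighv2-9-1 and Ighv2-5 were singled out after their values were seen.

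Detection of other Ighv genes did not exclude Ighv1-23 in a cell. Of the 3575 Mll3/4-labelled cells with an Ighv1-23 UMI, 94.9% (94.1 to 95.6) also had another Ighv gene. Of the 3256 cells without it, 86.0% (84.8 to 87.2) had another Ighv gene. The first set was deeper, with a median of 10980 UMIs against 8726, and the part of depth in this difference was not tested.

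Individual genes ranged over more than 3 orders of magnitude in the Mll3/4-labelled library. There, 152 of the 185 genes had at least 1 UMI in B-cell progenitor-like cells, 75 had at least 20, 30 at least 100 and 7 at least 1000. The 7 highest genes held 69.0% of all Ighv UMIs and the highest alone 23.2%. In the other libraries 22, 27 and 4 genes were detected, and no gene had more than 3 UMIs in the control, 12 in the Mll3-labelled and 2 in the Mll4-labelled library.

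Ighv1-23, which lies in the middle of the locus, had 1 UMI in the control, 4 in the Mll3-labelled, 2 in the Mll4-labelled and 7201 in the Mll3/4-labelled B-cell progenitor-like cells. It was detected in 52.3% of the Mll3/4-labelled cells, at 94.9 CPM, which was 300.5-fold the control with a wide interval (53.9 to 11869) set by the single control UMI. The distal gene Ighv1-76 had 0, 1, 0 and 3771 UMIs in the same order, and was at least 52.4-fold higher in the Mll3/4-labelled than in the control library. Here and below, "at least" sets a control gene at 0 to a floor of 3 UMIs over the group.

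Ighv1-66, also distal, had 0, 1, 0 and 3633 UMIs and was at least 50.5-fold higher. Ighv1-75 had 0, 1, 0 and 2084 UMIs and Ighv1-82 had 0, 1, 0 and 1992, at least 29.0-fold and 27.7-fold higher. These 5 genes were low in all 3 other libraries and had the 5 highest levels in the Mll3/4-labelled library, both as CPM and as CPM per kilobase of transcript. Ighv1-7 followed with 0, 1, 0 and 1416 UMIs (at least 19.7-fold higher), and Ighv1-63 with 1, 0, 0 and 1316 UMIs (54.9-fold, 9.84 to 2170).

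Ighv14-2, a proximal gene, had the most UMIs of any Ighv gene in the Mll3-labelled cells. It had 0 UMIs in the control, 12 in the Mll3-labelled, 0 in the Mll4-labelled and 397 in the Mll3/4-labelled cells. Its level in the Mll3/4-labelled library, 5.23 CPM, was at least 5.52-fold that of the control. Ighv5-2, the third gene from the proximal end, had 2, 0, 2 and 195 UMIs (4.07-fold, 1.11 to 33.8). It is the most proximal of the named genes with more than 3 UMIs.

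Some genes had no clear difference at this depth. Ighv8-11 led the control with 3 UMIs and had 72 in the Mll3/4-labelled library, a ratio of levels of 1.001 (0.329 to 4.97). Ighv14-1 had 2 UMIs in the control and 8 in the Mll3/4-labelled library (ratio 0.167, 0.0333 to 1.61). The pseudogene Ighv1-33 had 1 and 26 UMIs, Ighv5-16 had 1 and 32, Ighv1-18 had 1 and 32, and the pseudogene Ighv1-25 had 1 and 34, with ratios of 1.08 to 1.42 whose intervals all include 1. Ighv5-6 and Ighv1-53 are named for their rank in the Mll3-labelled and the Mll4-labelled library, and not for a lack of difference from control. Ighv5-6 had 2 UMIs in the Mll3-labelled and 55 in the Mll3/4-labelled cells. Ighv1-53 had 1 in the Mll4-labelled and 227 in the Mll3/4-labelled cells. At the ends of the locus the pseudogenes Ighv5-1 and Ighv1-86 had 3 and 7 UMIs in the Mll3/4-labelled library and none elsewhere.

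Between the Mll3/4-labelled and control libraries, 31 Ighv genes were higher by 2-fold or more and none was lower, among the 75 with at least 20 UMIs in either library, on the log2(CPM + 1) scale. Over all 13458 genes tested in the same way, 9.50% were higher and 7.38% lower. The Ighv genes reached the minimum through the Mll3/4-labelled library alone, since no gene had over 3 control UMIs and 61 of the 75 had none, so none of them could have been called lower. The other 110 Ighv genes were below the minimum. No Ighv gene reached the minimum in the comparisons of the Mll3-labelled or the Mll4-labelled library with control.

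By subfamily, Ighv1 genes held 90.2% (89.9 to 90.5) of the Ighv UMIs in the Mll3/4-labelled cells. The Ighv1 share was 42.3% (23.4 to 63.1) in the control, 42.9% (28.8 to 57.8) in the Mll3-labelled and 66.7% (22.3 to 95.7) in the Mll4-labelled cells. The Mll3/4-labelled share lay above the intervals of the control and the Mll3-labelled library and inside that of the Mll4-labelled library, which rests on 6 UMIs. The summed Ighv1 level was 106-fold the control level (59.4 to 213).

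The other subfamilies with a UMI in the control had lower ratios. The ratio of the Mll3/4-labelled to the control level was 9.12 for Ighv2 (3.11 to 44.4), 7.47 for Ighv5 (2.54 to 36.3), 9.87 for Ighv14 (2.72 to 81.7) and 14.6 for Ighv9 (2.61 to 580). The ratios for Ighv8 (2.27, 0.876 to 8.42), Ighv4 (2.17, 0.373 to 87.3) and Ighv6 (3.55, 0.620 to 142) had intervals that include 1. The interval of Ighv1 lay above those of Ighv2, Ighv5 and Ighv8, and overlapped those of Ighv4, Ighv6, Ighv9 and Ighv14. Ighv8 genes lie among the Ighv1 genes in the middle and distal locus, and none of the 16 reached 100 UMIs in the Mll3/4-labelled cells. They held 0.702% of the Ighv UMIs of the Mll3/4-labelled cells against 15.4% (4.36 to 34.9) in the control. The control share rests on 4 UMIs, and the lower share is not a lower level, given the ratio of 2.27 above.

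Within Ighv1, 22 genes had at least 100 UMIs in the Mll3/4-labelled library, 56 had 1 to 99 and 15 had none. Outside it, Ighv2-7 led its subfamily with 286 UMIs, Ighv9-3 with 194 and Ighv7-4 with 163. Ighv14 held 30.6% of the Mll3-labelled Ighv UMIs and 1.52% of the Mll3/4-labelled. Genes annotated as V genes rather than as pseudogenes, 113 of the 185, held 95.4% of the Mll3/4-labelled UMIs. They held 80.8% in the control, 98.0% in the Mll3-labelled and 100% in the Mll4-labelled cells, so a high share was not particular to 1 library. This annotation does not show that a gene is functional. Only 1 Ighv pseudogene, Ighv1-1 with 583 UMIs, reached 100 in the Mll3/4-labelled cells.

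**Figure D3:**
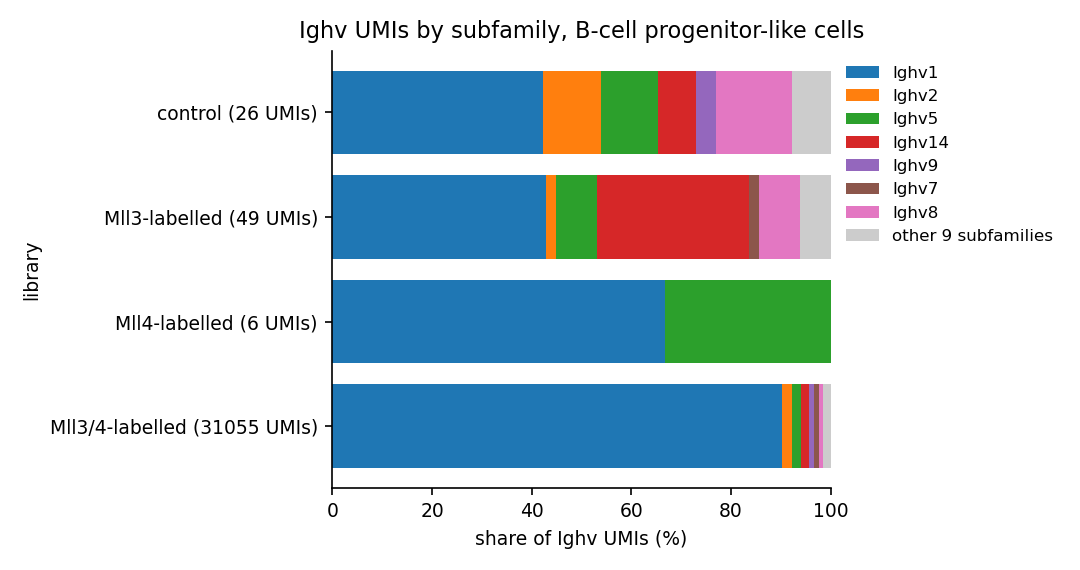
Share of Ighv UMIs (%) by subfamily in the B-cell progenitor-like cells of each library, with the number of UMIs behind each bar. Ighv1 fills 90.2% of the Mll3/4-labelled bar, and 42.3% and 42.9% of the control and Mll3-labelled bars.

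By position, the genes were split along the locus into a proximal, a middle and a distal segment of 62, 62 and 61 genes. In the Mll3/4-labelled cells these held 8.21%, 32.2% and 59.6% of the Ighv UMIs. In the control they held 38.5%, 26.9% and 34.6%, in the Mll3-labelled 42.9%, 22.4% and 34.7%, and in the Mll4-labelled 33.3% each. The distal share of the Mll3/4-labelled cells (59.1 to 60.2) lay above the intervals of the control (17.2 to 55.7) and the Mll3-labelled library (21.7 to 49.6) and inside that of the Mll4-labelled library (4.33 to 77.7). By hashtag the distal share of the control was 18.2% (2.28 to 51.8) and 46.7% (21.3 to 73.4), and that of the Mll3-labelled library 29.6% (13.8 to 50.2) and 40.0% (19.1 to 63.9). The Mll3/4-labelled shares of 62.7% and 56.9% lay above these intervals for the first hashtag and inside them for the second.

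The ratio of the Mll3/4-labelled to the control level was 10.6 for the proximal segment (5.78 to 22.2), 59.5 for the middle (28.9 to 148) and 85.8 for the distal (45.2 to 188). The proximal interval lay below the other 2, which overlapped each other. Ighv1-23 alone made up 72.1% of the middle segment's UMIs, so the middle ratio rests largely on this gene. The ratio without it was not computed, so a difference of the other middle genes from the proximal ones is not shown. The median gene of the Mll3/4-labelled cells had 13 UMIs in the proximal, 8 in the middle and 18 in the distal segment. Position and subfamily overlap, because the first Ighv1 gene lies 0.779 Mb from the proximal end. Among Ighv1 genes alone the distal share was 65.6% (65.1 to 66.2) in the Mll3/4-labelled, 45.5% (16.7 to 76.6) in the control and 61.9% (38.4 to 81.9) in the Mll3-labelled cells, with overlapping intervals.

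In steps of 0.5 Mb from the proximal end, the Mll3/4-labelled UMIs were spread as 5.73%, 10.2%, 24.7%, 13.1% and 46.3%. The last step held 26 genes with a median of 47.5 UMIs, and the third step held 48 genes with a median of 4 UMIs, of which Ighv1-23 was the only gene to reach 100. Ighv1-23 thus stood alone among low neighbours, while 11 of the 26 genes of the last step reached 100 UMIs.

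**Figure D4:**
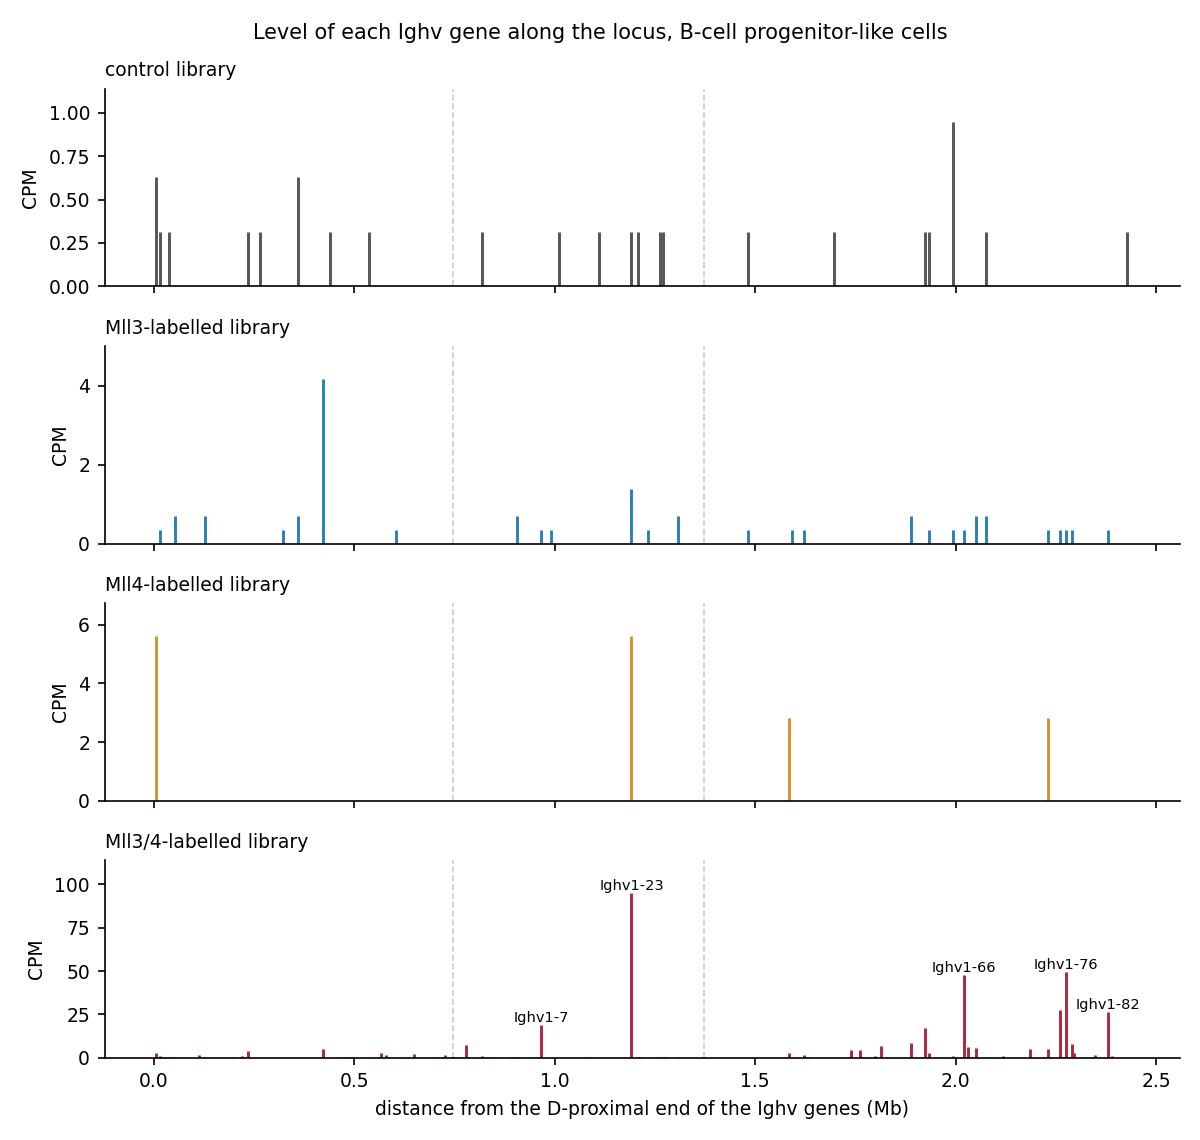
Level of each Ighv gene (CPM, a separate scale for each library) in B-cell progenitor-like cells against its distance in Mb from the D-proximal end, with dashed lines between the 3 segments. Ighv1-23 is the tallest line in the Mll3/4-labelled library at 94.9 CPM, and the next tallest lie beyond 2 Mb.

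Some close relatives in sequence had very different counts. Ighv1-23 and Ighv1-15, its nearest relative, are printed because they share 98.3% of the aligned V exon and lie 0.107 Mb apart. The sequences run 5′ to 3′ on the minus strand from the GENCODE transcripts (GRCm38, Ighv1-15 at chr12:114657353-114657786), and capitals mark the 5 bases that differ.
Ighv1-23: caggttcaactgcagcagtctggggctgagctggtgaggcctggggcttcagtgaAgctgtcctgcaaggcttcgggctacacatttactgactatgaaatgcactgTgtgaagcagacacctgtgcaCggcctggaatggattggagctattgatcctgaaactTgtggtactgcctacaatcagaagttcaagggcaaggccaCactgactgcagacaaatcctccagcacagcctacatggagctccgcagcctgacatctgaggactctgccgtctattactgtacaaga
Ighv1-15: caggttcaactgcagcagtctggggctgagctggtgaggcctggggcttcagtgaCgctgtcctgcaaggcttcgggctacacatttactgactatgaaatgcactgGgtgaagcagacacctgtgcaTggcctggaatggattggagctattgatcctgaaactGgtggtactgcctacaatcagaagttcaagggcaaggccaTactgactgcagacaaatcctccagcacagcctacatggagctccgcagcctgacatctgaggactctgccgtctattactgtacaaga
In the Mll3/4-labelled cells Ighv1-23 had 7201 UMIs and Ighv1-15 had 46, a ratio of 157 (117 to 214). Every stretch of 90 bases in either full transcript occurred in no other Ighv transcript. However, the printed sequences are identical from just after the last of the 5 differing bases to the 3′ end, a stretch shorter than 90 bases. A read lying wholly within that stretch cannot tell the genes apart. How far this affects the ratio was not tested.

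Of the 10 genes with the most UMIs in the Mll3/4-labelled library, 6 had at least 10-fold more UMIs than their nearest relative. The 10 were picked for their high counts, and the median Ighv1 gene had 13 UMIs, so most relatives would be far lower. Whether near relatives differed more or less than unrelated genes was not tested. Ighv1-66 had 3633 and Ighv1-84 had 11 (95.2% identity), Ighv1-82 had 1992 and Ighv1-80 had 22 (96.3%), and Ighv1-7 had 1416 and Ighv1-4 had 9 (97.6%). Ighv1-62-3 and Ighv1-72, the closest pair at 99.3%, had 634 and 367 UMIs. Only 55.1% and 47.2% of the 90-base stretches of this last pair were unique, so the split of reads between them is uncertain. Among the 6 pairs, the stretches of Ighv1-7 and Ighv1-4 were 80.6% and 77.9% unique, and those of Ighv1-75 and Ighv1-84 were 81.0% and 79.8% unique, so their ratios carry the same limit in part. Over the family, 120 of the 185 genes had only unique stretches and 151 had at least 90% unique.

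Cells were stained with 2 hashtag antibodies, whose meaning the labels do not give, and were assigned to a hashtag where its count was at least 3 times the other's. In B-cell progenitor-like cells the summed Ighv level was 383 CPM (377 to 389) in 3688 cells of the first hashtag and 439 CPM (432 to 446) in 3031 cells of the second. The 7 highest genes were the same 7 in both. The 30 genes with at least 100 UMIs had ratios of the second to the first of 0.728 to 1.96, with a median of 1.03. The most uneven was Ighv1-67, at 4.32 CPM with the first and 8.48 with the second. In the control the summed levels by hashtag were 8.02 and 8.39 CPM, and in the Mll3-labelled library 15.8 and 17.8 CPM. The Mll4-labelled values were 23.8 CPM (6.50 to 61.0) and 11.1 CPM (1.34 to 40.0), from 4 and 2 UMIs.

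**Figure D5:**
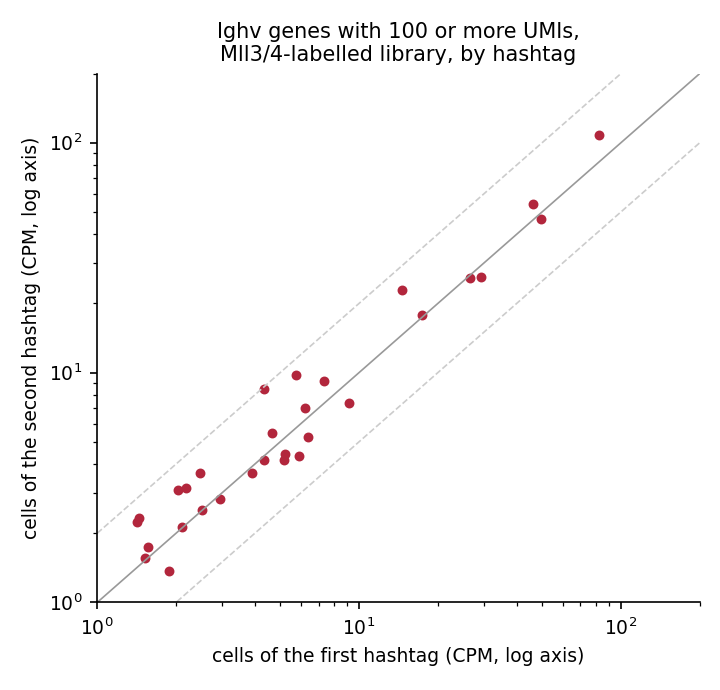
Level of each of the 30 Ighv genes with at least 100 UMIs in the Mll3/4-labelled B-cell progenitor-like cells (CPM, log axes), in cells of the first hashtag against cells of the second. The solid line marks equal levels and the dashed lines 2-fold differences, and all 30 genes lie between the dashed lines.

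Ighv levels also differed between clusters of the same library. Cluster 18 was low in the proliferation gene Mki67 (121 CPM in the control) and high in Rag1, and cluster 21 was high in Mki67 (1400 CPM in the control). In the control the Ighv level was 16.0 CPM in cluster 18 and 2.61 in cluster 21, a ratio of 6.15 (2.24 to 20.98). The ratio was 2.62 (1.43 to 4.92) in the Mll3-labelled and 9.19 (1.03 to 435) in the Mll4-labelled library. In the Mll3/4-labelled library the Ighv level was 446 CPM in cluster 0, 445 in cluster 2 and 453 in cluster 22, where Mki67 was at 33.9 to 105 CPM. It was 323 CPM in cluster 5 and 411 CPM in cluster 20, where Mki67 was at 1653 and 1404 CPM. Cluster 5 had the lowest level of the 5, and the Ighv1 share stayed within 88.3% to 92.8% across them.

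The cluster led by Ms4a1, a marker of mature B cells, was left unnamed because MHC class II genes also led it, and is not counted among the cells above. In the Mll3-labelled library it held 147 cells with 22 Ighv UMIs (49.0 CPM, 30.7 to 74.2). In the control it held 23 cells with none, where the upper bound of 48.2 CPM overlaps the Mll3-labelled interval. In the Mll4-labelled library it held 4 cells with 1 UMI, and in the Mll3/4-labelled library no cell.

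Ighm and Ighd did not show the difference seen in the Ighv genes. Ighm, the first constant gene, which is transcribed in germline form and as part of the assembled heavy chain, was at 960 CPM in the control, 891 in the Mll3-labelled, 1143 in the Mll4-labelled and 888 in the Mll3/4-labelled cells. Ighd was at 23.7, 17.0, 11.2 and 21.7 CPM. The 160 Igkv genes of the kappa light chain summed to 1.26, 3.47, 5.61 and 13.4 CPM, from 4, 10, 2 and 1018 UMIs. The Ighj, D segment and Iglv genes had no UMI in the B-cell progenitor-like cells of any library.

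Genes of V(D)J recombination and of the control of the heavy chain locus differed in both directions. Of 30 such genes, 29 had enough UMIs to compare the Mll3/4-labelled with the control cells, and 4 were higher and 7 lower by 2-fold or more (9.50% and 7.38% of all genes). The median log2 difference was -0.36, against 0.02 over all genes tested. Among the higher were Foxo1, a transcription factor that drives Rag expression (119.7 to 475.6 CPM), and Il7r, the interleukin-7 receptor (261 to 703 CPM). Wapl, which releases cohesin, was at 11.4 and 30.3 CPM, and the end-joining gene Xrcc5 at 17.0 and 37.3 CPM.

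Among the lower were Spi1, which encodes PU.1 (49.6 to 3.90 CPM), Pou2f2, which encodes the octamer-binding factor Oct2 (19.3 to 0.698 CPM), and Xrcc6, the partner of Xrcc5 (266 to 76.8 CPM). Irf4, Tcf3, Stat5a and Lig4 were also lower by 2-fold or more, although Stat5a and Lig4 passed that limit only without trimmed-mean scaling. Pax5 was at 244 and 368 CPM, Rag1 at 325 and 388, Yy1 at 150 and 151, and Ezh2 at 486 and 267, none of them past 2-fold. Of the 4 surrogate light chain genes Vpreb2 was lower, at 399 and 0.883 CPM. Its near-identical copy Vpreb1 was at 3461 and 2835 CPM, and the split of reads between them was not tested.

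In the Mll3-labelled library none of the 29 genes passed 2-fold against control (0.417% of all genes were higher and 1.84% lower). In the Mll4-labelled library 2 were higher and 2 lower (8.07% and 8.68% of all genes), and with trimmed-mean scaling none was higher and 5 were lower.

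Markers of other cells were set beside these results. The 8 neutrophil markers summed to 2423 CPM in the control, 1795 in the Mll3-labelled, 6327 in the Mll4-labelled and 78.0 in the Mll3/4-labelled B-cell progenitor-like cells. The 6 plasma cell markers summed to 955, 846, 292 and 1052 CPM. Tnfrsf17 was at 0 in the control, Mll3-labelled and Mll4-labelled cells, Jchain in the control and Mll3-labelled cells, and Prdm1 in the Mll3-labelled cells. The 8 mature B markers summed to 427, 307, 239 and 313 CPM. The part of these cells in the Ighv levels was not tested.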

How the data were processed

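The authors deposited raw counts per gene and cell (UMI counts) for each of the 4 libraries, with antibody and hashtag counts beside them. Cell Ranger 6.1.2 and the build mm10 are named in the submitters' processing notes. The counting of strand and of reads that match several genes is not given in the sources used here. Gene positions and sequences came from GENCODE M21 (GRCm38), where all 185 Ighv identifiers matched.

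Cells with at least 500 genes, at least 1000 UMIs and at most 10% mitochondrial UMIs were kept, and the cells with the highest Scrublet scores (scanpy 1.11.5) were removed as doublets at 0.8% per 1000 barcodes (5.29% to 8.01% of the cells that passed the filters). Cells were clustered jointly on 2000 variable genes (30 components, 15 neighbours, Leiden resolution 1), with immunoglobulin and T-cell receptor genes, Xist, and Y-linked and mitochondrial genes left out. Clusters were named from fixed marker lists. Counts were summed per library and class and scaled to counts per 1000000 UMIs of all genes (CPM). Intervals are exact Poisson for levels, exact Clopper-Pearson for shares, and exact conditional binomial for ratios. Genes were compared on log2(CPM + 1) with at least 20 UMIs in either library. All ratios share the 1 control library. The comparison was tested on simulated data. The changed genes there all had far more control UMIs than any Ighv gene, so that test does not cover calls at the Ighv counts.

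Ighv genes were named by rule: the 10 with the highest mean level, the 3 with the most UMIs in each library, the 5 highest and 5 lowest ratios, both ends of the locus, and the 3 most often dominant; others are named as leaders of a subfamily, nearest relatives or extremes. The members, lists and rules were chosen with earlier results of these data known.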

Additional observations from a re-analysis of the deposited data

How the results depend on the processing

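With 1 library per group no difference could be tested, and the depth of the control (26 Ighv UMIs), Mll3-labelled (49) and Mll4-labelled (6) B-cell progenitor-like cells limits every gene-level ratio. No paired analysis was possible because each group has 1 library and the labels give no replicate numbers. The class restricted to B-cell progenitor-like clusters was the same as the class reported, since no cluster of the reported clustering was named mature B or plasma cell. Of 151 values recomputed under other settings, 139 stayed within the interval of the reported value or within 1.5 times a reported count, as did 42 of 49 values under settings chosen after seeing the data (adding the cluster led by Ms4a1, each hashtag alone, and Ighv1 genes alone). The 139 include the values of the restricted class, which could not move. They also include Mll4-labelled values, whose intervals from 6 UMIs are wide, so these counts are a weak check.

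Thinning to 2000 UMIs gave a log2 ratio to control of 4.91 in place of 5.64 for the Mll3/4-labelled level, of -1.14 in place of 1.04 for the Mll4-labelled level (1 UMI), and 0.445% of Mll3/4-labelled cells with a dominant gene. Trimmed-mean scaling moved the log2 difference of every gene, with shifts of -0.12 for the Mll3/4-labelled and 0.25 for the Mll4-labelled library. The distal share of the Mll3/4-labelled cells, 59.6%, became 58.0% with segments of equal length, 77.6% without Ighv1-23, 55.9% with 1 vote per cell (ties split equally), 62.7% and 56.9% in the cells of the first and second hashtag, and 65.6% within Ighv1, where the Mll3-labelled share was 61.9%. The Ighv1 share became 87.3% without Ighv1-23 and 92.4% with 1 vote per cell, and in the Mll4-labelled cells 100% without the top gene and in the second hashtag. The share of Mll3/4-labelled cells with a dominant gene was 12.1% at a minimum of 2 UMIs, 1.93% at 5 UMIs, and 5.23% and 7.32% by hashtag. With a pseudocount of 0.1 CPM in place of 1, 68 Ighv genes in place of 31 were higher in the Mll3/4-labelled library by 2-fold or more.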

Other observations

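Genes beside and within the Ighv locus were read in the same B-cell progenitor-like cells, as values chosen by position. On the flank next to the constant genes, Crip2 was at 18.6 CPM in the control, 16.3 in the Mll3-labelled, 73.0 in the Mll4-labelled and 659.5 in the Mll3/4-labelled cells. Its neighbour Crip1 was at 1687, 1804, 2821 and 7230 CPM, Tmem121 at 27.2, 21.5, 39.3 and 115 CPM, and Tedc1 at 21.2, 19.8, 50.5 and 66.7 CPM. Mta1, farther out, was at 51.8, 44.1, 44.9 and 72.6 CPM. Beyond the distal end, Zfp386 was at 44.5 and 59.1 CPM in the control and the Mll3/4-labelled cells, Vipr2 at 1.26 and 4.04 CPM (4 and 307 UMIs, past 2-fold), Wdr60 at 10.1 and 17.9 CPM, Esyt2 at 26.2 and 30.1 CPM, D430020J02Rik at 7.89 and 7.52 CPM, and Ncapg2 at 93.1 and 83.5 CPM. Gm48079 had 0 and 32 UMIs.

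Within the Ighv span, the long noncoding gene Gm30948 on the opposite strand overlaps the pseudogene Ighv1-57 and was at 146, 107, 152 and 291 CPM in the order of the libraries. Ighv1-57 itself had 1 UMI in the control and 46 in the Mll3/4-labelled cells. Gm19331, also on the opposite strand, overlaps Ighv1-62-1 and had 4, 0, 0 and 1086 UMIs, and Ighv1-62-1 had 0, 0, 0 and 499 UMIs. How far counts of such overlapping pairs can be told apart depends on strand in the counting, which is not given in the sources used here. Gm7003, annotated as a V pseudogene but without an Ighv symbol, also lies within the span and had 0, 0, 0 and 152 UMIs.

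Among the constant genes, Ighg2b had 221 UMIs (69.8 CPM) in the control, 144 in the Mll3-labelled, 9 in the Mll4-labelled and none in the Mll3/4-labelled B-cell progenitor-like cells, at least 1766-fold lower than in the control (floor of 3 UMIs over the group). Ighg1 had 0, 0, 0 and 19 UMIs. Igkc was at 54.6, 45.9, 143 and 12.7 CPM.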
